A study of Mus musculus with 24 samples.

Results

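The genes described here encode lamins (Lmnb1, Lmnb2, Lmna), a lamin B receptor (Lbr), high mobility group proteins (Hmgb1, Hmgb2, Hmga1, Hmga2) and lysosomal glycosidases (Glb1, Fuca1). They were taken by gene symbol, 10 of the 25229 genes in the count table, as transcripts that are often followed in senescent cells. RNA was sequenced from ID8 P53 KO cells, a mouse ovarian cancer cell line in which the Trp53 gene is disrupted. Every group carried this genotype, was cultured for 6 days and held 6 libraries, numbered 1 to 6. The groups received the vehicle DMSO, the PROTAC AU15330 at 2.5 μM, cisplatin at 750 nM, or a combination of both drugs. AU15330 directs the SWI/SNF chromatin remodeling ATPases SMARCA4 and SMARCA2 to degradation as proteins, and cisplatin is a platinum drug that crosslinks DNA. The study's text gives another cisplatin concentration for these cells, and the labels were followed. All libraries came from a single cell line, and no label says that the replicates were separate cultures, so p-values measure the spread between these libraries.

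Lamins form a meshwork under the inner nuclear membrane. Loss of lamin B1, loss of HMGB2, release of HMGB1 from the nucleus and high lysosomal β-galactosidase activity, which derives from Glb1, are widely used markers of senescence in cultured cells. HMGA proteins bind AT-rich DNA and have been found in the chromatin foci of senescent cells. In bulk RNA, fewer cells of a kind and less RNA per cell cannot be told apart.

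All 10 genes passed the filter on low counts. Levels are given as CPM, counts scaled by each library's TMM-adjusted size, and changes as log2 fold changes with their standard errors (SE). A gene is said to have risen or fallen when its Benjamini-Hochberg adjusted p-value over 12941 tested genes was under 0.05, by edgeR's quasi-likelihood test with all 24 libraries fitted together. Library totals ran from 17592588 to 25260009 counts. Of 9 ovarian surface and epithelial markers, 8 were tested, and Epcam did not exceed 2 counts in any library. Under AU15330 all 8 tested markers fell (list median -2.35), and Krt19 and Upk3b stood at -7.99 and -6.50 on the log2 scale (edgeR adjusted p = 6.44e-17 and 2.25e-12). Krt8 and Wt1 fell less, by 0.47 and 0.46 (edgeR adjusted p = 6.81e-05 and 7.38e-06). The summed level of the 9 markers ran from 3513 to 5309 CPM with DMSO and from 1018 to 1150 CPM with AU15330. The part of this drop in the results was not tested. Of 7 fibroblast markers, 5 were tested, and with AU15330 4 rose and 1 fell (list median 0.90). Col1a1, the most abundant of them, fell by 2.38, and the summed level of the 7 ran from 247 to 657 CPM with DMSO and from 164 to 270 CPM with AU15330. The 5 endothelial markers summed to at most 15.4 CPM in any library. With cisplatin 6 of the 8 tested ovarian and epithelial markers rose (list median 0.46), 3 of the 5 fibroblast markers rose and 1 fell (median 1.33), and both tested endothelial markers rose (median 1.54), and their part in the results was not tested either. Over all genes 26% rose and 25.7% fell with cisplatin, and 36.2% rose and 37.2% fell with AU15330. Replicate 1 held the highest level of Lmnb1, Hmgb1 and Hmgb2 in all 4 groups, and values without replicate 1 are given where they change a call.

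**Figure D1:**
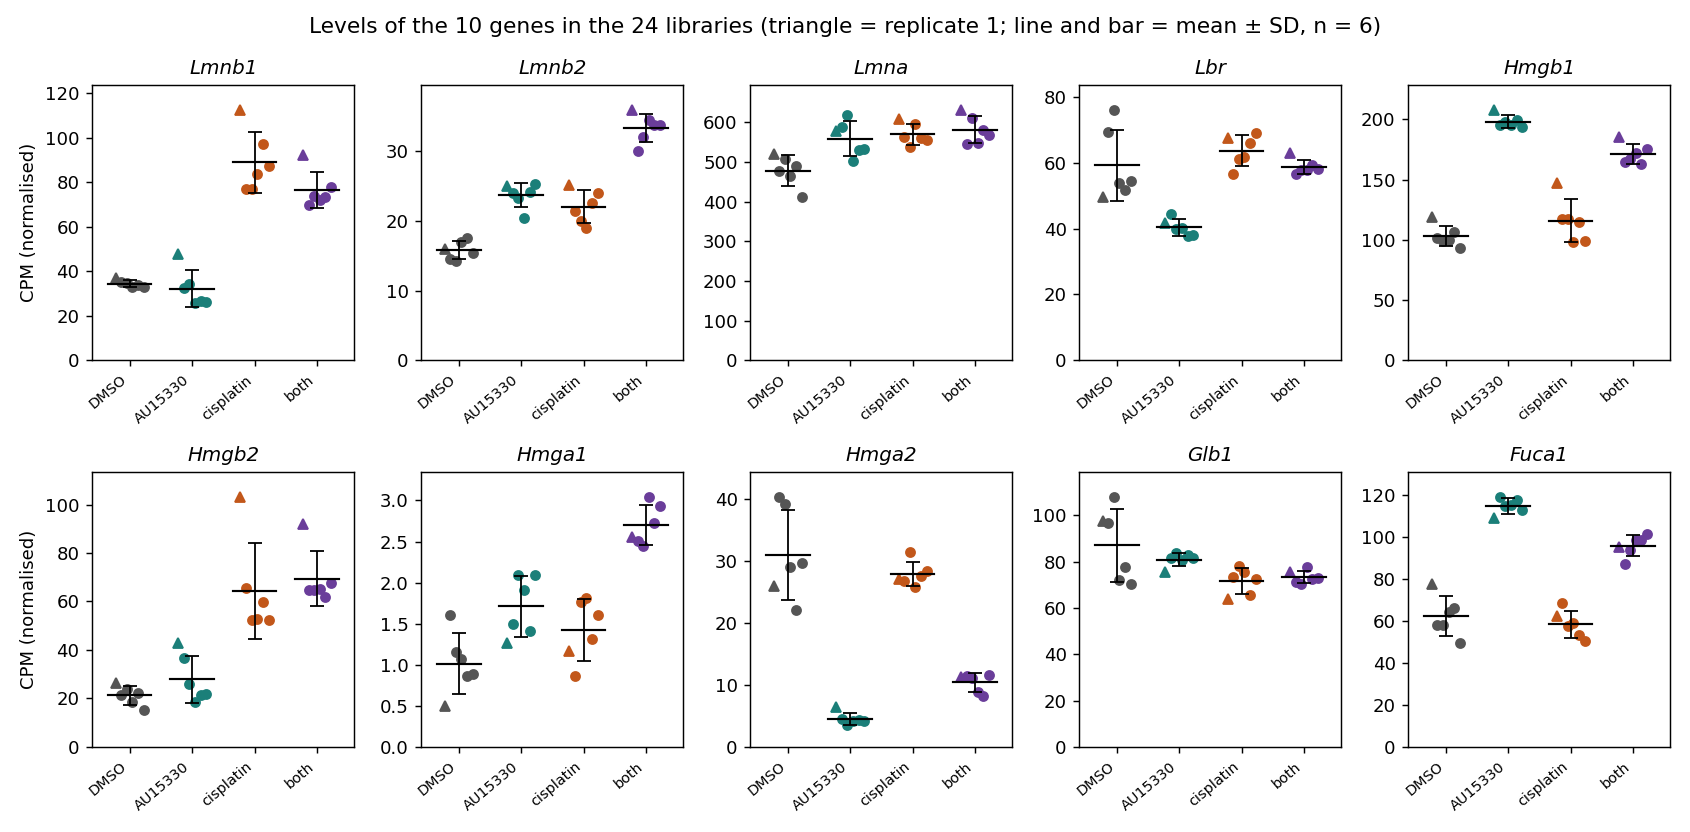
Normalised CPM (linear axes from 0) of each of the 10 genes in the 24 libraries by treatment. Triangles are replicate 1, lines and bars are the mean ± SD of 6 libraries. Hmga2 is low in all libraries with AU15330, Hmgb1 and Fuca1 are high in them, and Lmnb1 and Hmgb2 are high in all libraries with cisplatin.

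Cisplatin raised 4 of the 10 transcripts relative to DMSO (Lmnb1, Lmnb2, Lmna and Hmgb2) and lowered 1 (Glb1). Across all tested genes 51.7% were called in this comparison, 26% higher and 25.7% lower, so the count of 5 is near the background. The 4 that rose had CPM ranges apart from those of DMSO, as did 24% of all genes. AU15330 raised 5 (Lmnb2, Lmna, Hmgb1, Hmga1 and Fuca1) and lowered 2 (Lbr and Hmga2) relative to DMSO, against a background of 73.4%, with 36.2% higher and 37.2% lower. Ranges of 5 genes (Lmnb2, Lbr, Hmgb1, Hmga2 and Fuca1) lay apart, against 49.9% of all genes. With the combination relative to DMSO, 7 were higher and 2 lower, against 73.3% of all genes, 36.8% higher and 36.5% lower. Ranges of 8 genes, all but Lbr and Glb1, lay apart, against 49.5% of all genes. These comparisons share the DMSO libraries. The largest rise among the 10 with cisplatin and the largest fall with AU15330 were ranked among all tested genes. For Hmgb2 in cisplatin-treated cells, 935 of the tested genes rose by more, and for Hmga2 in AU15330-treated cells, 844 fell by more.

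**Figure D2:**
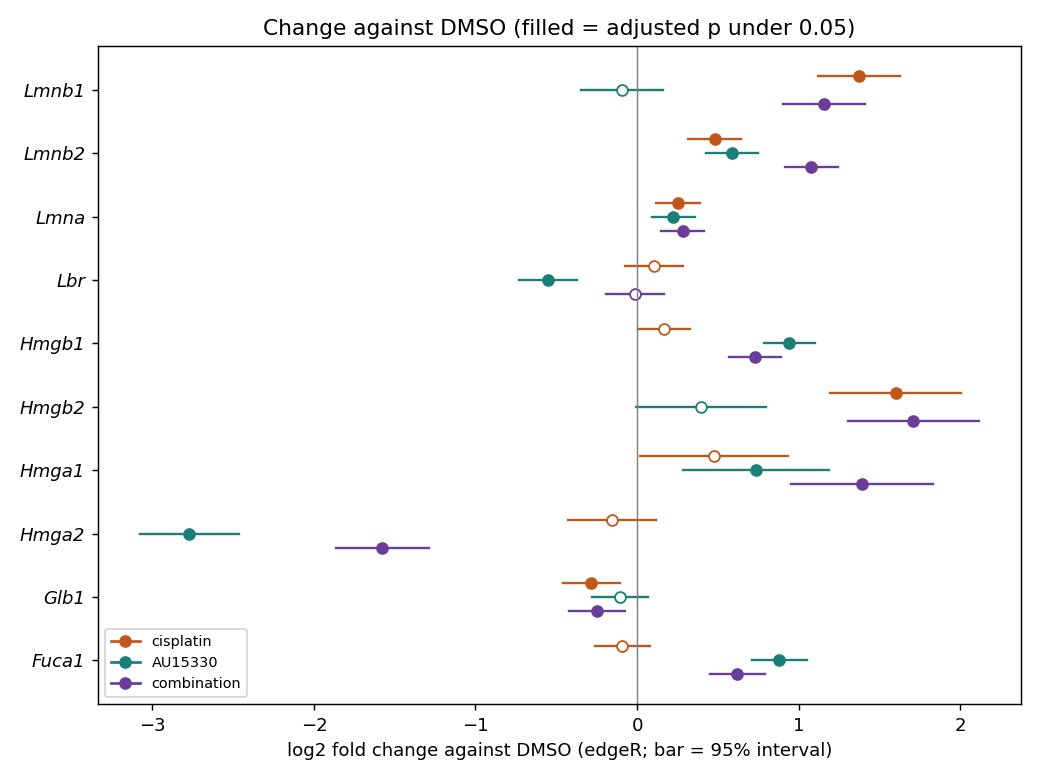
Log2 fold change of the 10 genes against DMSO for cisplatin, AU15330 and the combination, with 95% intervals computed from the edgeR estimates and their SE. Filled points passed an adjusted p of 0.05. Hmga2 stands at -2.77 under AU15330 and -1.58 under the combination, and Hmgb2 at 1.60 under cisplatin and 1.71 under the combination.

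Lmnb1, which encodes the B-type lamin B1, lies on chromosome 18 (56707813 to 56753424, plus strand, GRCm38). Its level ran from 32.7 to 36.9 CPM in DMSO libraries (median 34.4) and from 76.8 to 113 CPM with cisplatin (median 85.5). With AU15330 it ran from 25.6 to 47.5 CPM (median 29.7), and with the combination from 69.9 to 92.2 CPM (median 73.8). All libraries with cisplatin, alone or combined, therefore lay above all libraries without it. Relative to DMSO, Lmnb1 rose by 1.37 with cisplatin (SE 0.12, edgeR adjusted p = 6.96e-10) and by 1.15 with the combination (SE 0.12, adjusted p = 3.49e-09).

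AU15330 alone changed Lmnb1 by -0.09 (SE 0.12, edgeR adjusted p = 0.497). This value depended on replicate 1, whose AU15330 library was the highest of its group. Without replicate 1 the change was -0.23 and was called (edgeR adjusted p = 0.0148). The combination and cisplatin differed by -0.22 (SE 0.12, edgeR adjusted p = 0.105), and by -0.24 without replicate 1, which was called (edgeR adjusted p = 0.0110). This difference was also called with the replicate block (-0.22) and with only the 2 groups fitted (-0.24).

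Lmnb2, the gene of the other B-type lamin, lies on chromosome 10 (80901203 to 80918245, minus strand). It was the lowest of the lamin transcripts per length, at 4.69 CPM per kb of the median coding transcript in DMSO libraries, against 12.1 for Lmnb1 and 237 for Lmna. Levels ran from 14.2 to 17.6 CPM with DMSO (median 15.7), 20.5 to 25.4 with AU15330 (24.1), 18.96 to 25.2 with cisplatin (21.97) and 30.1 to 35.9 with the combination (33.8). Each drug raised it, and the combination libraries lay above all others. The rise was 0.48 with cisplatin (SE 0.08, edgeR adjusted p = 1.28e-05), 0.59 with AU15330 (SE 0.08, adjusted p = 2.15e-07) and 1.08 with the combination (SE 0.08, adjusted p = 2.42e-12).

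The effect of AU15330 on Lmnb2 in the presence of cisplatin, 0.60, differed from that in its absence by 0.01, with a 95% interval from -0.22 to 0.24 (edgeR adjusted p of the interaction 0.949). The B-type lamins thus moved unequally. Within a library the ratio of Lmnb1 to Lmnb2 rose by 0.88 on the log2 scale with cisplatin and decreased by 0.72 with AU15330 relative to DMSO, in both cases with no overlap between groups of 6 (exact permutation test, adjusted p = 0.00309 over 30 ratio tests). With the combination it differed from DMSO by 0.07 (exact permutation adjusted p = 0.364).

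Lmna, which encodes the A-type lamins A and C, lies on chromosome 3 (88480147 to 88509956, minus strand) and had the highest level per length of the 10 genes in every group. It ran from 411 to 520 CPM with DMSO (median 483) and from 502 to 619 with AU15330 (median 556). With cisplatin the range was 537 to 609 CPM (median 562) and with the combination 546 to 631 (median 575). Changes were small. Relative to DMSO, Lmna rose by 0.25 with cisplatin (SE 0.06, edgeR adjusted p = 0.00200), by 0.22 with AU15330 (SE 0.06, adjusted p = 0.00321) and by 0.28 with the combination (SE 0.06, adjusted p = 0.000392).

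Farnesylation and cleavage mature the lamin precursors. Of 5 enzymes of this processing, 4 fell with cisplatin and none rose, against 25.7% and 26% of all genes, with a list median of -0.29 against -0.0041 for all genes. The farnesyltransferase subunits Fntb and Fnta stood at -0.90 and -0.44 (edgeR adjusted p = 2.60e-07 and 0.000290), while with AU15330 only Rce1 among the 5 was called, at -0.21. Of 18 other genes of the inner nuclear membrane and lamina, cisplatin raised 5 and lowered 3, and AU15330 raised 4 and lowered 8. Over all genes cisplatin raised 26% and lowered 25.7%, and AU15330 raised 36.2% and lowered 37.2%. Nemp1, an inner nuclear membrane protein gene, rose by 1.23 with cisplatin and by 2.24 with AU15330, whereas Sun2, whose product links the nucleus to the cytoskeleton, rose by 0.47 with cisplatin and fell by 1.31 with AU15330.

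Lbr encodes the lamin B receptor, an inner nuclear membrane protein that also acts as a sterol reductase, and lies on chromosome 1 (181815335 to 181843046, minus strand). DMSO libraries ran from 49.5 to 76.1 CPM (median 54.3), with the highest values in replicates 2 and 3. AU15330 libraries ran from 37.8 to 44.6 CPM (median 40.1), below every other library. Cisplatin and combination libraries, at 56.7 to 69.1 (median 63.9) and 56.5 to 62.9 CPM (median 58.0), overlapped those of DMSO.

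Relative to DMSO, Lbr fell by 0.55 with AU15330 (SE 0.09, edgeR adjusted p = 2.45e-06) and differed by 0.10 with cisplatin (SE 0.09, adjusted p = 0.313), where it was called without replicate 3 (0.23, edgeR adjusted p = 0.0298). In the presence of cisplatin AU15330 changed it by -0.12 (SE 0.08, edgeR adjusted p = 0.225). The difference between these AU15330 effects was 0.44 (SE 0.12, edgeR adjusted p = 0.00693). This interaction was lost without replicate 3, at 0.31 (edgeR adjusted p = 0.0530). Of 5 related sterol enzymes, 4 fell with AU15330, as did 37.2% of all genes, and the list median was -0.65, with Msmo1 at -2.01.

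Of 11 other genes of the high mobility group families, cisplatin raised 3 and lowered 2, and AU15330 raised 3 and lowered 6. The shares over all genes were 26% and 25.7% for cisplatin and 36.2% and 37.2% for AU15330. Hmgn5, a nucleosome binding protein gene, rose by 2.14 with AU15330, and Hmgb3, another member of the Hmgb family, fell by 2.37.

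HMGB1 and HMGB2 are chromatin proteins that bend DNA, and HMGB1 acts as an alarmin outside the cell. Hmgb2 rose with cisplatin and Hmgb1 with AU15330, and the 250 bases before a RefSeq start site of each (GRCm38.p6) are shown for that reason, 5′ to 3′ on the gene's strand. Motifs were searched on both strands and are marked by capitals. The first motif was the CCAAT box, common in promoters of many kinds. The second, TTTGAA, is an element often found in promoters of cell cycle genes. The third, CACGTG, is the E-box present upstream of many lysosomal genes. An AP-1 element, spelled TGACTCA in the search, and an E2F element with the letters TTTGGCGC were also looked for. The windows are chr8:57511593-57511842 on the plus strand and chr5:149053058-149053307 on the minus strand.
Hmgb2: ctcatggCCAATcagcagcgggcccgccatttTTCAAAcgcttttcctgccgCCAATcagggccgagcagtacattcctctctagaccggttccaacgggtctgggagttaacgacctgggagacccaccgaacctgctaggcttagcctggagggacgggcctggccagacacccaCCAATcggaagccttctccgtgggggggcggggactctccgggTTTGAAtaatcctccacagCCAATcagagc
Hmgb1: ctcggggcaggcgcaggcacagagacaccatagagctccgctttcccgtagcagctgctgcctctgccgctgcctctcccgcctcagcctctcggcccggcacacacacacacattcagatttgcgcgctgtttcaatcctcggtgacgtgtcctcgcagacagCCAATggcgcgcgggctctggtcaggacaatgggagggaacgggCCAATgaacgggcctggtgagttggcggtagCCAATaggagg
The Hmgb2 window holds 4 matches to the first motif and 2 to the second, and the Hmgb1 window 3 matches to the first. Of 32851 promoter windows of this length, 33.9% hold the first motif at least once, 2.79% hold it 3 or more times, and 15.99% hold the second. A window before another Hmgb1 start site in RefSeq (chr5:149051617-149051866) holds no CCAAT box and 1 E-box. RefSeq promoters were matched for 9 of the 10 genes, all but Lmnb1.

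Hmgb2 lies on chromosome 8 (57511907 to 57515999, plus strand). It ran from 15.4 to 26.3 CPM with DMSO (median 21.8) and from 52.3 to 103 CPM with cisplatin (median 56.3). With AU15330 it ran from 18.7 to 43.0 CPM (median 23.9), and with the combination from 61.8 to 92.1 CPM (median 64.9). As for Lmnb1, libraries with cisplatin lay above all libraries without it. The rise was 1.60 with cisplatin (SE 0.19, edgeR adjusted p = 1.53e-07) and 1.71 with the combination (SE 0.19, adjusted p = 1.44e-08) relative to DMSO, and AU15330 alone gave 0.40 (SE 0.19, adjusted p = 0.0672). The AU15330 value was called with total counts (0.53), with lane 1 alone (0.45) and with the replicate block (0.35).

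Hmgb1 lies on chromosome 5 (149046702 to 149184489, minus strand). It ran from 93.5 to 119 CPM with DMSO (median 101) and from 194 to 208 CPM with AU15330 (median 197). Cisplatin libraries ran from 98.3 to 147 CPM (median 116) and combination libraries from 163 to 185 CPM (median 170). All libraries with AU15330 lay above all libraries without it, and the combination lay below AU15330 alone. Relative to DMSO, Hmgb1 rose by 0.94 with AU15330 (SE 0.08, edgeR adjusted p = 2.73e-11) and by 0.73 with the combination (SE 0.08, adjusted p = 3.38e-09), and it differed by 0.17 with cisplatin (SE 0.08, adjusted p = 0.0716). The cisplatin value was called with total counts (0.24), with lane 2 alone (0.20) and with the replicate block (0.16).

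The effect of AU15330 on Hmgb1 was smaller in the presence of cisplatin, at 0.57, and the interaction was -0.38 (SE 0.11, edgeR adjusted p = 0.00856). The direct difference between the combination and AU15330, -0.21 (SE 0.08, edgeR adjusted p = 0.0276), was no longer called without replicate 2, 3 or 5, when it lay between -0.21 and -0.20. The ratio of Hmgb2 to Hmgb1 within a library rose by 1.42 with cisplatin (exact permutation adjusted p = 0.00309) and changed by -0.60 with AU15330 relative to DMSO (exact permutation adjusted p = 0.0265). The second value was not past the threshold without replicate 3, 4 or 5, at -0.54, -0.53 and -0.53. Among 6 tested genes of HMGB1 receptors and export, AU15330 raised 3 and lowered 3, against 36.2% and 37.2% of all genes. The receptor gene Tlr2 rose by 2.38 with cisplatin and by 4.51 with AU15330, and Tlr4 fell by 0.42 with AU15330.

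Proliferation genes rose with each drug, and their part in the results for Lmnb1 and Hmgb2 was not tested. All 20 listed genes rose with cisplatin, with a list median of 2.48, and all 20 rose with AU15330, with a median of 1.09, against 26% and 36.2% of all genes. Their summed level ran from 561 to 838 CPM with DMSO, 1109.6 to 1976 with AU15330, 2445 to 3288 with cisplatin and 3494 to 4253 with the combination. The genes whose log CPM followed Lmnb1 most closely over the 24 libraries were Haus3, Kif23 and Incenp (Pearson r 0.98, 0.97 and 0.97), and for Hmgb2 they were Gins1, Cdca8 and Kpna2 (0.98 each). These libraries share treatments, and how much of such a likeness the treatments set was not tested.

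**Figure D3:**
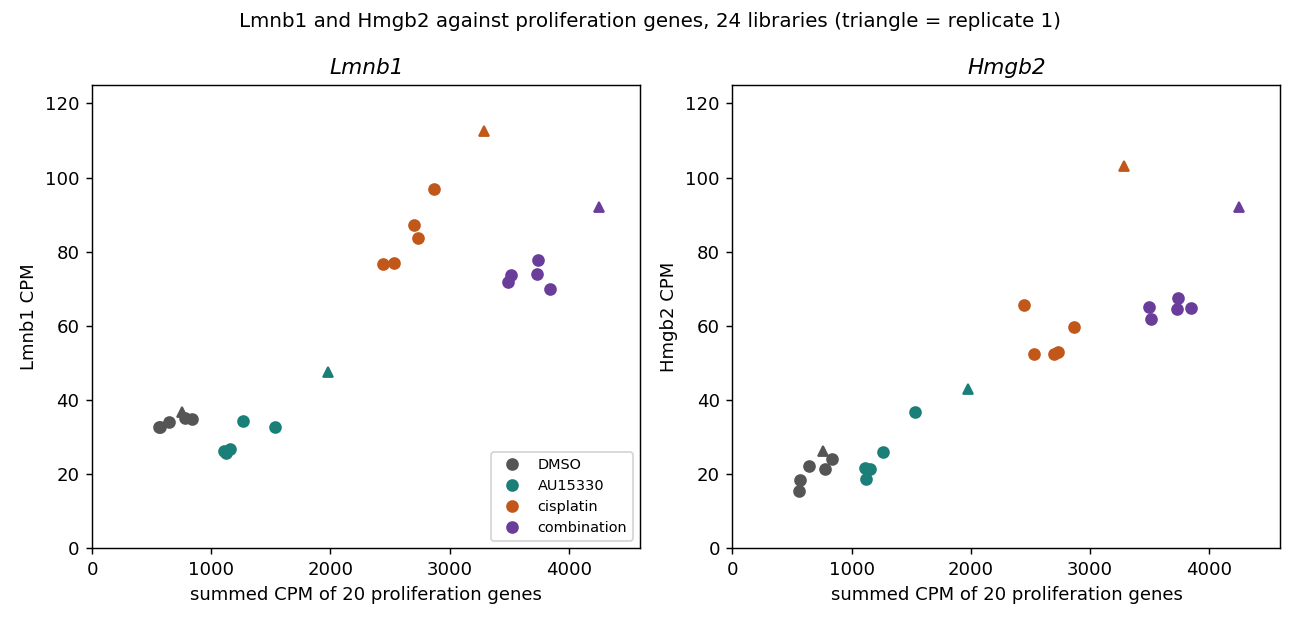
CPM of Lmnb1 and Hmgb2 against the summed CPM of 20 proliferation genes in the 24 libraries, colored by treatment, with replicate 1 as triangles. AU15330 libraries have higher sums than DMSO libraries at overlapping Lmnb1 and Hmgb2 levels, and combination libraries have higher sums than cisplatin libraries at overlapping Lmnb1 and Hmgb2 levels.

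Hmga2 lies on chromosome 10 (120361275 to 120476469, minus strand) and had the largest change of the 10 genes. DMSO libraries ran from 22.1 to 40.4 CPM (median 29.3) and cisplatin libraries from 25.8 to 31.4 CPM (median 27.4). AU15330 libraries ran from 3.62 to 6.48 CPM (median 4.26), which rested on 80 to 144 counts, and combination libraries from 8.24 to 11.6 CPM (median 11.2). The AU15330 and combination ranges did not overlap each other or those of the other groups. With AU15330 Hmga2 fell by 2.77 relative to DMSO (SE 0.15, edgeR adjusted p = 3.91e-15), to 4.55 ± 0.993 CPM (mean ± SD, n = 6) from 31.0 ± 7.28 CPM. Its promoter window, chr10:120476470-120476719 on the minus strand, is shown because this change was the largest, and it holds none of the motifs searched.
Hmga2: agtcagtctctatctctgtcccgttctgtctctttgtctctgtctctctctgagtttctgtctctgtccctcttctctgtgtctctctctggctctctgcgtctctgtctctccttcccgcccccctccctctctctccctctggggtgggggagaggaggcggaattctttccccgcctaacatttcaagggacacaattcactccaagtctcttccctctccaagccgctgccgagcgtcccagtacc

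In the presence of cisplatin the fall was 1.42 (SE 0.14, edgeR adjusted p = 8.22e-10), and the interaction was 1.35 (SE 0.20, adjusted p = 9.01e-06), so that the combination libraries held 1.19 more on the log2 scale than AU15330 alone (SE 0.15, adjusted p = 4.10e-07). Cisplatin alone changed Hmga2 by -0.16 (SE 0.13, edgeR adjusted p = 0.326). Of 7 genes listed around Hmga2 and let-7, 3 were tested, and all 3 fell with AU15330, as did 37.2% of all genes. Igf2bp1 fell by 1.44, Igf2bp2 by 1.41 and Dicer1 by 0.40. Lin28b, an inhibitor of let-7, did not exceed 1 count in any library. The transcripts most like Hmga2 over the 24 libraries were Smtn, Trim16 and Pkp1 (Pearson r 0.99, 0.98 and 0.98).

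**Figure D4:**
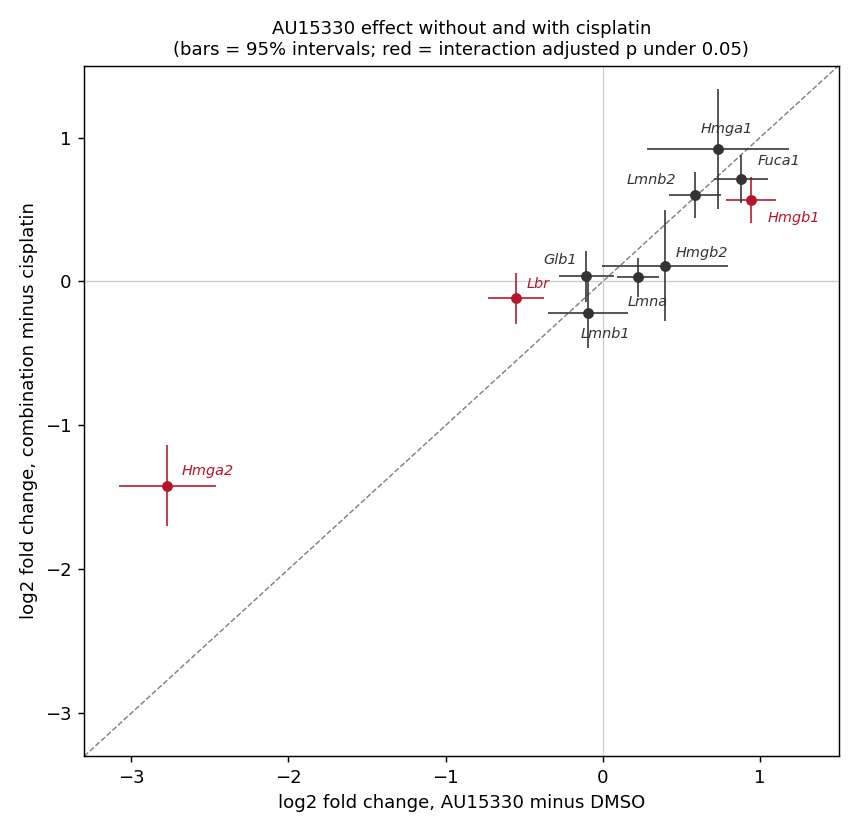
Log2 fold change with AU15330 in the absence (x axis) and presence (y axis) of cisplatin for the 10 genes, with 95% intervals. The dashed line marks equal effects and red marks an interaction with adjusted p under 0.05. Hmga2 and Lbr lie above the line and Hmgb1 below it.

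Hmga1, on chromosome 17 (27556497 to 27563674, plus strand), was the lowest of the 10 transcripts per length in DMSO (1.11 CPM per kb) and cisplatin libraries (1.55), whereas Hmga2 was the lowest with AU15330 (1.21) and the combination (2.77). It ran from 0.495 to 1.61 CPM with DMSO (8 to 33 counts), 1.26 to 2.10 with AU15330, 0.864 to 1.82 with cisplatin and 2.44 to 3.05 with the combination. The combination libraries lay above all others. The rise relative to DMSO was 0.73 with AU15330 (SE 0.22, edgeR adjusted p = 0.00388) and 1.39 with the combination (SE 0.21, adjusted p = 1.69e-06), and cisplatin alone gave 0.47 (SE 0.22, adjusted p = 0.0735), which was called without replicate 2 (0.75) and with lane 1 alone (0.90). With lane 2 alone the AU15330 value was not called (0.46, edgeR adjusted p = 0.143). The combination was 0.66 above AU15330 alone, which was not called with lane 1 alone (0.56). AI413582 overlaps Hmga1 on the opposite strand with 151 to 1336 counts a library, and whether strand was used in counting is not given in the sources used here, so Hmga1 is uncertain.

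Glb1 and Fuca1 did not move together. Glb1 encodes the lysosomal β-galactosidase and lies on chromosome 9 (114401076 to 114474898, plus strand). Fuca1 encodes the lysosomal α-L-fucosidase and lies on chromosome 4 (135920735 to 135940311, plus strand). Their promoter windows, chr9:114400828-114401077 and chr4:135920476-135920725, both on the plus strand, are shown to compare them.
Glb1: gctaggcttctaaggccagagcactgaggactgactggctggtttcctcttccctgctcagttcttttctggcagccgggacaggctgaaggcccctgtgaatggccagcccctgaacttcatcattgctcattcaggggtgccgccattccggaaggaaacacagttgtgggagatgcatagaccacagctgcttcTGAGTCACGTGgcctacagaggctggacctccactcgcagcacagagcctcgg
Fuca1: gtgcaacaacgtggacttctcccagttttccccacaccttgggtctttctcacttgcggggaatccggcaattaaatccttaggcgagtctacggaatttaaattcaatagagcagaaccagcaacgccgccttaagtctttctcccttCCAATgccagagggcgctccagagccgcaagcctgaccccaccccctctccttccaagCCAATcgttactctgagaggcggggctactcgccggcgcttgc
The Glb1 window holds the E-box once, overlapping an AP-1 element, and the Fuca1 window holds 2 CCAAT boxes. The E-box is present in 6.02% of all promoter windows, and 2 or more CCAAT boxes in 10.1%.

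Glb1 ran from 70.4 to 108 CPM with DMSO (median 87.2), 75.6 to 83.6 with AU15330 (median 81.6), 64.1 to 78.1 with cisplatin (median 73.0) and 70.4 to 77.5 with the combination (median 72.7). The DMSO libraries were the most spread, and all groups overlapped them. Replicates 1 to 3 of DMSO stood at 97.4, 96.7 and 108 CPM, above all cisplatin libraries, and replicates 4 to 6, at 72.2, 77.7 and 70.4 CPM, within the cisplatin range. Glb1 fell by 0.28 with cisplatin (SE 0.08, edgeR adjusted p = 0.00638), a difference that lay in DMSO replicates 1 to 3. AU15330 changed it by -0.11 (SE 0.08, edgeR adjusted p = 0.261). Every AU15330 library lay below DMSO replicates 1 to 3, and all but AU15330 replicate 1 lay above DMSO replicates 4 to 6. The combination gave -0.25 relative to DMSO (SE 0.08, edgeR adjusted p = 0.0104). This call was lost without replicate 2 (-0.21), without replicate 3 (-0.16) and with total counts (-0.10). The overlapping gene Tmppe, on the same strand, held 243 to 962 counts a library.

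Fuca1 ran from 49.7 to 77.5 CPM with DMSO (median 61.3) and from 109 to 119 CPM with AU15330 (median 115). Cisplatin libraries ran from 50.4 to 68.3 CPM (median 58.2) and combination libraries from 87.2 to 101 CPM (median 96.9). Libraries with AU15330 lay above all libraries without it. Fuca1 rose by 0.88 with AU15330 (SE 0.08, edgeR adjusted p = 3.12e-10) and by 0.62 with the combination (SE 0.08, adjusted p = 1.64e-07), and cisplatin gave -0.09 (SE 0.08, adjusted p = 0.354). The combination was 0.26 lower than AU15330 alone in the fit (-0.26, SE 0.08, edgeR adjusted p = 0.0111), and without replicate 3 the difference stayed at -0.26, but was not called (edgeR adjusted p = 0.0505). The ratio of Fuca1 to Glb1 rose by 0.98 with AU15330 (exact permutation adjusted p = 0.00309) and differed by 0.18 with cisplatin (exact permutation adjusted p = 0.237).

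**Figure D5:**
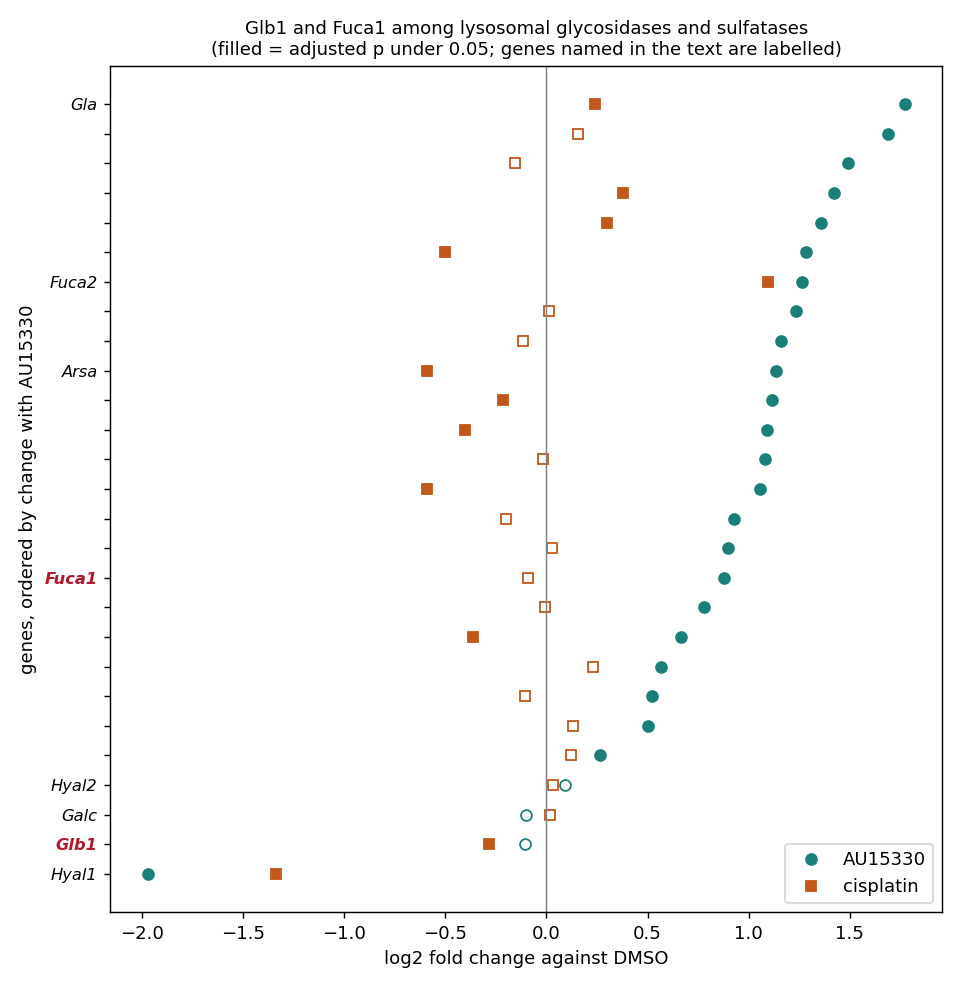
Log2 fold change against DMSO of Glb1, Fuca1 (red names) and 25 other lysosomal glycosidase and sulfatase genes with AU15330 (circles) and cisplatin (squares). Each row is 1 gene, ordered by the AU15330 change, and the genes named in the text are labelled. Filled symbols passed an adjusted p of 0.05. Fuca1 stands at 0.88 with AU15330 among 22 other genes that rose, while Glb1 stands at -0.11.

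Of 25 other lysosomal glycosidases and sulfatases tested, 22 rose and 1 fell with AU15330, against 36.2% and 37.2% of all genes, and the list median was 1.08 against -0.0030 for all genes. Gla, the gene of α-galactosidase A, rose by 1.77 (edgeR adjusted p = 9.07e-17). Among these 25 genes with Fuca1 and Glb1 added, Fuca1 was number 17 and Glb1 number 26 of 27 in order from the largest rise to the largest fall, and Glb1, Galc and Hyal2 were the genes not called. The gene that fell, Hyal1, and Galc and Hyal2 were chosen here after their values were seen. With cisplatin, 4 of the 25 rose and 7 fell, against 26% and 25.7% of all genes, with Fuca2 at 1.09 and Arsa at -0.59, and the list median was -0.0082. In the presence of cisplatin, AU15330 raised 21 of the 25 and lowered 1, against 35.4% and 32.7% of all genes.

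Other lysosomal genes encode proteases, lipid enzymes and membrane proteins. Of 27 tested, AU15330 raised 18 and lowered 7, with Lamp2 at 1.83 and Ctsh at -2.94, against 36.2% and 37.2% of all genes. Cisplatin raised 12 of the 27 and lowered 1, against 26% and 25.7%. Of 3 tested genes of lysosomal transcription factors, AU15330 raised 2, Tfeb by 0.41 and Mitf, chosen after its values were seen, by 2.20, with Tfe3 at -0.0199. With cisplatin Tfe3 fell by 0.30, and the other two were not called. Leukocytes are rich in lysosomes, and of their 9 markers only Cd68 and Cd14 exceeded 5 counts in any library. The summed level of the 9 markers ran from 12.7 to 30.7 CPM with DMSO and from 17.6 to 53.5 CPM with AU15330, where Cd68, itself a lysosomal protein gene, rose by 1.56 and Cd14 fell by 3.96.

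The combination was also set against each drug alone. Relative to cisplatin, Lmnb2, Hmgb1, Hmga1 and Fuca1 rose and Hmga2 fell, 5 of the 10 against 68.1% of all genes (35.4% higher and 32.7% lower), and the libraries of these 5 did not overlap, as for 50.2% of all genes. Relative to AU15330, 6 rose (Lmnb1, Lmnb2, Lbr, Hmgb2, Hmga1 and Hmga2) and 2 fell (Hmgb1 and Fuca1), against 41.7% of all genes, 22.2% higher and 19.5% lower. Libraries of these 8 did not overlap between the groups, against 29.6% of all genes. The largest of these rises were Hmgb2 by 1.31 (SE 0.19, edgeR adjusted p = 4.59e-06) and Lmnb1 by 1.25 (SE 0.12, adjusted p = 1.03e-08).

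In the direct comparison of AU15330 with cisplatin, Hmgb1 and Fuca1 were higher with AU15330, by 0.78 and 0.97, and Lmnb1, Lbr, Hmgb2 and Hmga2 were lower. These 6 calls stand against a background of 73.1%, with 35.8% higher and 37.3% lower, and their ranges lay apart, as for 57.4% of all genes. The difference was -1.47 for Lmnb1 (SE 0.12, edgeR adjusted p = 3.74e-11) and -2.61 for Hmga2 (SE 0.15, adjusted p = 1.17e-14). Interactions were called for 3 of the 10 genes (Lbr, Hmgb1 and Hmga2), against 33.7% of all genes, 17.9% higher and 15.8% lower.

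Cell cycle inhibitors are other transcripts often followed with these markers. Of 7 listed, 4 were tested, and relative to DMSO 1 rose, 1 fell and 2 were not called with each drug alone. Over all genes 26% rose and 25.7% fell with cisplatin, and 36.2% rose and 37.2% fell with AU15330. Cdkn2a and Cdkn2b had 0 counts in all 24 libraries. For any single library, a count of 0 leaves an expected count of up to about 3 possible by counting error alone. Cdkn1a, which encodes p21, stood at -1.504 with cisplatin and -3.94 with AU15330 (edgeR adjusted p = 1.09e-07 and 2.90e-15), and Cdkn2c rose by 0.51 and 0.97. The genes nearest to the remaining members over the 24 libraries were Eftud2 for Lmnb2, Ddx24 for Lmna, Eri1 for Lbr, Hat1 for Hmgb1, Urb1 for Hmga1, Lamb1 for Glb1 and Ier5l for Fuca1, with Pearson r of 0.96, 0.91, 0.92, 0.98, 0.92, 0.87 and 0.98.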

How the data were processed

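The authors aligned single-end reads of poly(A)-selected, strand-specific libraries to mm10 with STAR 2.7.1a and deposited raw read counts per gene symbol; both names are from the submitters' processing notes, which also list DESeq2 1.36.0. The counting tool, strand use and annotation are not given in the sources used here. The 48 count columns (2 lanes for each of 24 libraries) were matched to samples by their labels, with 0 left over, and lanes were summed.

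edgeR 4.0.16 (R 4.3.3) was used with TMM scaling, filterByExpr (12941 genes kept), the quasi-likelihood test with 20 residual degrees of freedom, and Benjamini-Hochberg adjustment over all tested genes (threshold 0.05, prior count 2 for log CPM). Differences of log2 ratios between genes of a library were tested by two-sided exact permutation (smallest p 0.00216). The procedure was tested on simulated counts with few changed genes and independent libraries. Those settings differ from these data, so no error rate for these data follows from it. A count of 0 in a single library was taken to allow an expected count of up to about 3, which covers counting error only.

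All 10 genes were named in every comparison. From other lists, the 2 largest and 2 smallest changes called with cisplatin or AU15330 relative to DMSO at a minimum log CPM of 3 were named, and as most alike genes the 3 of highest Pearson r above the same minimum, of which the first is printed for most members. Lin28b, Epcam and the markers at low counts were named after their values were seen. The members, lists and tests were chosen with earlier results of these data known. Coordinates and median coding transcript lengths are from GENCODE vM21 (GRCm38), promoters from RefSeq. Alternatives covered scaling, filter, lanes, groups fitted, replicate block, size threshold, DESeq2 1.42.0 and each replicate left out. Some genes that this naming covers are not reported here.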

Additional observations from a re-analysis of the deposited data

Results flagged for a closer look

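In 4 of 40 groups of 6 libraries (10 genes by 4 treatments), the highest library lay apart from the others by more than Dixon's 95% critical value for the gap over the range, where chance gives about 2. All 4 were replicate 1: Lmnb1 with the combination (0.647), Hmgb2 with cisplatin (0.739), Hmgb2 with the combination (0.81) and Hmga2 with AU15330 (0.695).

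The effect of AU15330 differed with and without cisplatin for Lbr (interaction 0.44, edgeR adjusted p = 0.00693), Hmgb1 (-0.38, adjusted p = 0.00856) and Hmga2 (1.35, adjusted p = 9.01e-06). Without replicate 3 the Lbr difference was 0.31 (adjusted p = 0.0530).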

How the results depend on the processing

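Requiring a fold change above 1.5 (edgeR) left 2 of the 10 genes called for cisplatin against DMSO (13.8% of all genes), 3 for AU15330 against DMSO (36%), 1 for the combination against cisplatin (29.4%), 3 for the combination against AU15330 (6.51%), 6 for the combination against DMSO (36.2%), 5 for AU15330 against cisplatin (36.5%) and 1 for the interaction (7.16%). The sources of lost and gained calls by replicate are given beside each gene. Same-numbered libraries were alike in part. Of 36 same-numbered pairs 23 correlated above 0.1, with a mean of 0.14 and the lowest at -0.13. Pairs of different numbers had a mean of -0.027, and 10 of 24 libraries were closest to their own number. With the replicate block the calls were 6 of 10 for cisplatin and 8 for AU15330 against DMSO and 6 for the combination against cisplatin (56.8%, 77% and 71.8% of all genes), and for the 5 ratios in 6 comparisons 24 of 30 passed in place of 27. Hmgb1 with cisplatin (0.16), Hmgb2 with AU15330 (0.35) and Lmnb1 between combination and cisplatin (-0.22) were gained, and no call of a gene was lost. Fitting only the 2 groups compared gained Lmnb1 (-0.24) and Lbr (-0.14) for combination against cisplatin, and Glb1 for combination against AU15330 (-0.14) and for AU15330 against cisplatin (0.17). DESeq2 gained the Lmna interaction (-0.22), and lane 1 alone Glb1 for AU15330 against cisplatin (0.21).

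Direction turned only for values that were not called. With total counts, these were Lmnb1 (0.0389) and Glb1 (0.0290) for AU15330 against DMSO, Lbr (0.13) for combination against DMSO, Lmna (0.0262) for AU15330 against cisplatin and Lmnb2 (-0.0520) for the interaction. That scaling moved the median of all genes to 0.13 for AU15330 against DMSO, 0.14 for combination against DMSO and 0.10 for combination against cisplatin, and the values above are to be read against it. Higher and lower calls over all genes were then 3977 and 2529 for cisplatin (3360 and 3329 with TMM), 5618 and 3973 for AU15330 (4681 and 4816), 5730 and 3867 for combination against DMSO (4757 and 4729) and 1791 and 2506 for the interaction (2313 and 2048). Glb1 with the combination was then not called (-0.10), and 5 calls were gained: Hmgb1 (0.24) and Hmga1 (0.55) with cisplatin, Hmgb2 with AU15330 (0.53), Glb1 for AU15330 against cisplatin (0.23) and the Lmna interaction (-0.26). Median-of-ratios size factors turned Lmna for combination against cisplatin (-0.00340) and Lmnb2 for the interaction (-0.018), as did every gene with at least 1 count (-0.00360 and -0.00226) and DESeq2 (-0.00271 and -0.0161). Lane 1 alone turned Lmnb2 (-0.0693) and Hmga1 (-0.35) for the interaction, lost Hmga1 for combination against AU15330 (0.56) and gained Hmga1 with cisplatin (0.90). Lane 2 alone turned Lmna (-0.013) and Glb1 (-0.029) for combination against cisplatin and Lbr (0.0338) for combination against DMSO, and lost Hmga1 with AU15330 (0.46). Leaving out 1 replicate gave, for combination against cisplatin, Lmna from -0.024 to 0.053 and Glb1 from -0.043 to 0.054, for combination against DMSO Lbr from -0.14 to 0.083, for AU15330 against cisplatin Lmna from -0.10 to 0.018, and for the interaction Lmnb2 from -0.10 to 0.058 and Hmga1 from -0.11 to 0.29. Hmga1, at 8 to 67 counts a library, is the gene most limited by depth.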
